A study of Mus musculus with 18 samples.

Results

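The kinesin motor genes of the mouse embryonic cortex are described here across a lineage of dividing progenitors, differentiating progenitors and newborn neurons. They were taken by symbol: every protein-coding row named Kif or Kifc with a number and, where present, a letter. A kinesin motor gene named otherwise, such as Cenpe, is not among them. The rule found 40 genes among 38250 rows of the count tables, of which 18538 are protein-coding rows with a symbol. By their textbook roles, 13 were listed as mitotic, 15 as cargo transport, 6 as microtubule dynamics and signalling, and 6 as cilium kinesins. A total of 39 passed the filter on low counts, and Kif12, with 1 read in all libraries together, did not and was not tested.

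Lateral cortex of C57BL/6 mouse embryos at embryonic day 14.5 was dissociated without the meninges and ganglionic eminences, and cells were sorted by red and green fluorescence. All groups carry the genotype written Btg2GFP/Tubb3GFP, in which 1 reporter follows Btg2, a gene switched on in progenitors about to produce neurons, and the other follows Tubb3, a tubulin gene of neurons. The proliferating progenitors (PP, titled RFPminus) are Btg2 negative, the differentiating progenitors (DP, titled RFPplus) are Btg2 positive, and the neurons (Neuron, titled GFPplus) are Tubb3 positive. Each group has 3 libraries of poly-A RNA, every one from a pool of more than 3 embryos, and a p-value weighs a difference against the spread of these pools. No treatment or mutation distinguishes the groups, and PP are defined by the lack of a signal, so cells of any kind that lack it could fall among them.

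Kinesins are motor proteins that use ATP to move along microtubules or to take microtubules apart at their ends. One set assembles the spindle, moves chromosomes and completes cytokinesis, and a cortical progenitor needs it at every division. Another set carries vesicles, mitochondria and RNA granules along axons and dendrites, which a newborn neuron is beginning to grow.

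The 9 libraries held between 34337209 and 55935128 counts. Kinesin genes took between 0.472% and 0.476% of the counts in PP, between 0.692% and 0.715% in DP and between 0.784% and 0.846% in Neuron. The marker lists followed the sort, although PP and DP each held mRNA of the other's markers. Btg2 and Tubb3, whose reporters defined the sort, are themselves on the intermediate progenitor and postmitotic neuron lists. Those sums are therefore no independent check of the sort. The 9 radial glia markers summed to between 6075 and 7007 CPM (counts scaled to 1 library size with TMM factors) in PP. In DP they summed to between 2793 and 4018 CPM, and in Neuron to between 313.6 and 398 CPM. The 8 intermediate progenitor markers summed to between 3134 and 4511 CPM in DP. In PP they summed to between 1315 and 1334 CPM, and in Neuron to between 726 and 851 CPM. The 9 postmitotic neuron markers summed to between 397 and 624 CPM in PP and between 2501 and 3373 CPM in DP. In Neuron they reached between 11580.4 and 12228 CPM. Markers of other cells were present: 9 red blood cell markers summed to between 8362 and 15318 CPM in PP against between 18.4 and 124 CPM in DP, and 10 markers of ventral progenitors and interneurons to between 425 and 462 CPM in Neuron against between 30.5 and 165 CPM in DP. Other lists are quoted beside the results they touch. No marker list had a member at 0 in any group, and the part these cells play in the kinesin values was not tested.

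Promoter sequences are shown first, for the mitotic kinesins, because these genes moved together in the comparisons that follow. RefSeq promoter entries (GRCm38.p6, 250 bases before to 50 bases after each start) matched 32 of the 40 members by symbol, among them 12 of the 13 mitotic ones. The motif TTTGAA, the core of the cell cycle gene homology region of many mitotic promoters, was searched on both strands, as were TTCGAA and CCAAT, and matches of different motifs were counted independently and may overlap. TTTGAA was found in 11 of the 12 mitotic promoters, Kif18a being the one without it, against 12.7% of 15643 promoters of protein-coding genes of the same length. It was found in 1 of 10 cargo transport, 1 of 5 dynamics and signalling and 1 of 5 cilium promoters. CCAAT was found in 8 of the 12 mitotic promoters against 37.4% of the protein-coding ones. TTTGAA or TTCGAA together with CCAAT was found in 8 of 12 against 5.88%. A kinesin gene was counted if any of its entries held the motif, and the 32 genes had 36 entries. The protein-coding shares count single entries, so the 2 sides are not in the same unit. A match describes letters in this window and is no evidence of a bound factor. The 30-base windows below run 5′ to 3′ on the gene's strand with the TTTGAA nearest the start in capitals, and TTCAAA is the same motif on the other strand.
Kif11 (chr19:37376351-37376380, plus strand, first motif base at -19): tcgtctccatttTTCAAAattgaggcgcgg
Kif15 (chr9:122951050-122951079, plus strand, first motif base at -19): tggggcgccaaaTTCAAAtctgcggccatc
Kif22 (chr7:127042420-127042449, minus strand, first motif base at -17): gggccccggtaaTTCAAAagagagaagcgg
Kif18b (chr11:102925104-102925133, minus strand, first motif base at 4): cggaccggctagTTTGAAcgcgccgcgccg
Kif20b (chr19:34922353-34922382, plus strand, first motif base at 8): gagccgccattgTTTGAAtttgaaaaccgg
Kif23 (chr9:61946780-61946809, minus strand, first motif base at 3): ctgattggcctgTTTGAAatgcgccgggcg
Kif4 (chrX:100626072-100626101, plus strand, first motif base at 20): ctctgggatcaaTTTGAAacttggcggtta
Kifc1 (chr17:33890615-33890644, minus strand, first motif base at 2): cggaggttgaaaTTCAAAagtggcgggtgt
Kifc5b (chr17:26917108-26917137, plus strand, first motif base at 30): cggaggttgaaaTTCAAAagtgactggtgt
Kif2c (chr4:117178858-117178887, minus strand, first motif base at -103): ccaggctgctctTTCAAAcctgagtaatgc
Kif14 (chr1:136467608-136467637, plus strand, first motif base at -228): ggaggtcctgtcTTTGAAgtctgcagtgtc
In 9 of the 11 genes this match began between -19 and 30 from the start, counted without a position 0, while Kif2c and Kif14 had it farther upstream. The windows of Kifc1 and Kifc5b begin with the same bases around the motif. These genes, with the pseudogene Kifc5c-ps that held 771 reads, are near-identical copies, and how counting split their reads makes each value uncertain.

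Neurons held little mRNA of the mitotic motors. Between DP and Neuron all 13 mitotic kinesins fell, each at least 4-fold, at a Benjamini-Hochberg adjusted p under 0.05 over 18627 features in edgeR's quasi-likelihood test, and none rose (0 at an unadjusted p under 0.05 and 0 by DESeq2). Over all features, 34.2% were called lower in this comparison and 9.84% were called lower by at least 4-fold. The median log2 change of the 13 was -4.83, with a range from -5.15 (Kif23) to -3.01 (Kif20b), against -0.04 over all features. In bulk libraries, fewer cells that hold a message and less of it per cell cannot be told apart.

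Kif11, the kinesin-5 that pushes spindle poles apart (chr19:37450893-37496349, plus strand, mm9), had the highest CPM of the mitotic set. In library order L222, L355, L393 for PP, L223, L356, L394 for DP and L224, L357, L395 for Neuron, which is kept throughout, it stood at 216, 236 and 257 CPM in PP, 358, 244 and 285 CPM in DP and 15.1, 5.77 and 5.23 CPM in Neuron. The Neuron libraries lay far below the others without overlap, with L224 highest of the 3, and the PP and DP ranges overlapped. It fell 33.9-fold from DP to Neuron (log2 change -5.08, SE 0.35, adjusted p = 1.09e-07). Kif15, the kinesin-12 that can take over part of the work of Kif11, stood at 108, 107 and 123 CPM in PP, 135, 99.1 and 125 CPM in DP and 6.08, 2.13 and 1.93 CPM in Neuron. Here too Neuron was far below both progenitor groups, which overlapped, and the fall was 35.4-fold (adjusted p = 5.87e-08).

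The kinesin-6 members act in the central spindle and in cytokinesis. Kif23, a subunit of centralspindlin, stood at 91.1, 101 and 115 CPM in PP, 157.2, 118 and 129.9 CPM in DP and 6.51, 2.8 and 2.11 CPM in Neuron. Its fall to Neuron was 35.4-fold (log2 change -5.15, SE 0.31, adjusted p = 3.35e-08), and each Neuron library lay below every progenitor library. Kif20a, which brings the chromosomal passenger complex to the central spindle, stood at 83.9, 90.8 and 101 CPM in PP, 155.2, 100.3 and 126 CPM in DP and 7.82, 3.41 and 3.99 CPM in Neuron and was 25.1-fold below its DP level in Neuron (adjusted p = 2.58e-08). Its exons share 32.3% of their length with Cdc23 on the opposite strand, and reads of overlapping genes cannot be told apart where strand use is not stated. Kif20b, needed for abscission in cortical progenitors (chr19:34996848-35050221, plus strand, mm9), stood at 54.0, 53.1 and 62.7 CPM in PP, 87.3, 66.5 and 84.0 CPM in DP and 10.6, 9.16 and 9.83 CPM in Neuron. The 3 groups did not overlap: DP was highest and Neuron lowest. Kif20b was 1.399-fold above PP in DP (log2 change 0.48, SE 0.11, adjusted p = 0.00383) and 8.05-fold below DP in Neuron (log2 change -3.01, SE 0.12, adjusted p = 1.2e-09), the smallest of the 13 falls.

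The motors that act on chromosomes and the midzone were also low in Neuron. Kif4, a chromokinesin that sets the length of midzone microtubules, stood at 103, 101 and 108 CPM in PP, 154, 101 and 120.1 CPM in DP and 6.97, 2.54 and 3.14 CPM in Neuron. It was 29.7-fold below its DP level in Neuron (adjusted p = 4.08e-08), and 15.1% of its exon length is shared with Pdzd11 on the opposite strand. Kif22, which pushes chromosome arms, stood at 77.8, 80.2 and 94.1 CPM in PP, 128, 88.2 and 106 CPM in DP and 6.72, 3.47 and 3.24 CPM in Neuron and was 24.0-fold lower in Neuron (adjusted p = 1.22e-08). Both genes were low in all 3 Neuron libraries, with L224 the highest.

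The motors that shorten microtubules at their ends gave the same order. Kif18a, which damps chromosome movements, stood at 29.2, 32.1 and 33.4 CPM in PP, 49.4, 37.1 and 40.4 CPM in DP and 3.81, 2.38 and 2.45 CPM in Neuron and was 14.7-fold below its DP level in Neuron (adjusted p = 3.34e-09). Kif18b, which acts on astral microtubules, stood at 54.2, 66.99 and 77.5 CPM in PP, 110.1, 77.1 and 87.1 CPM in DP and 4.89, 1.69 and 1.54 CPM in Neuron and was 33.8-fold lower (adjusted p = 1.02e-07). Kif2c, which frees wrongly attached kinetochores, stood at 47.7, 56.8 and 61.1 CPM in PP, 93.6, 65.4 and 77.8 CPM in DP and 4.94, 1.85 and 1.39 CPM in Neuron and was 28.9-fold lower (adjusted p = 1.35e-07). Neuron lay below both progenitor groups in each of these genes, without overlap.

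Kif14, a midbody motor, and the minus-end motors complete the set. Kif14 stood at 34.7, 39.7 and 44.5 CPM in PP, 72.9, 52.2 and 62.7 CPM in DP and 3.79, 1.402 and 1.42 CPM in Neuron and was 28.5-fold below its DP level in Neuron (adjusted p = 4.82e-08). Kifc1, which bundles spindle microtubules and focuses poles, stood at 58.9, 71.9 and 79.1 CPM in PP, 123, 87.8 and 102 CPM in DP and 6.95, 4.47 and 3.4 CPM in Neuron and was 21.04-fold lower (adjusted p = 9.91e-09). Its copy Kifc5b stood at 23.6, 29.5 and 36.2 CPM in PP, 49.1, 37.3 and 47.7 CPM in DP and 5.66, 4.85 and 4.4 CPM in Neuron and was 8.96-fold lower (adjusted p = 1.47e-08). All 3 genes were highest in the DP libraries and lowest in the Neuron libraries.

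The library Neuron L224 held the highest level of its group for each of the 13 mitotic kinesins, at a median of 2.46 times the mean of the other 2 Neuron libraries. The radial glia markers of L224 summed to 398 CPM against 339 and 313.6 CPM in the others, and their part was not tested. Without L224 the falls of 6 members from DP to Neuron were more than 1.5 times larger, at 53.5-fold for Kif11, 54.4-fold for Kif23, 58.5-fold for Kif15, 56.2-fold for Kif18b, 48.1-fold for Kif2c and 44.3-fold for Kif14. Without L222, L223 and L224 together, the fall of Kif15 was 54.5-fold. All 13 members kept their call under each of the 18 alternatives in this comparison. Against PP, too, all 13 were lower in Neuron and none was higher (0 at an unadjusted p under 0.05 and 0 by DESeq2), with a median log2 change of -4.23, while 38.6% of all features were called lower.

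**Figure D1:**
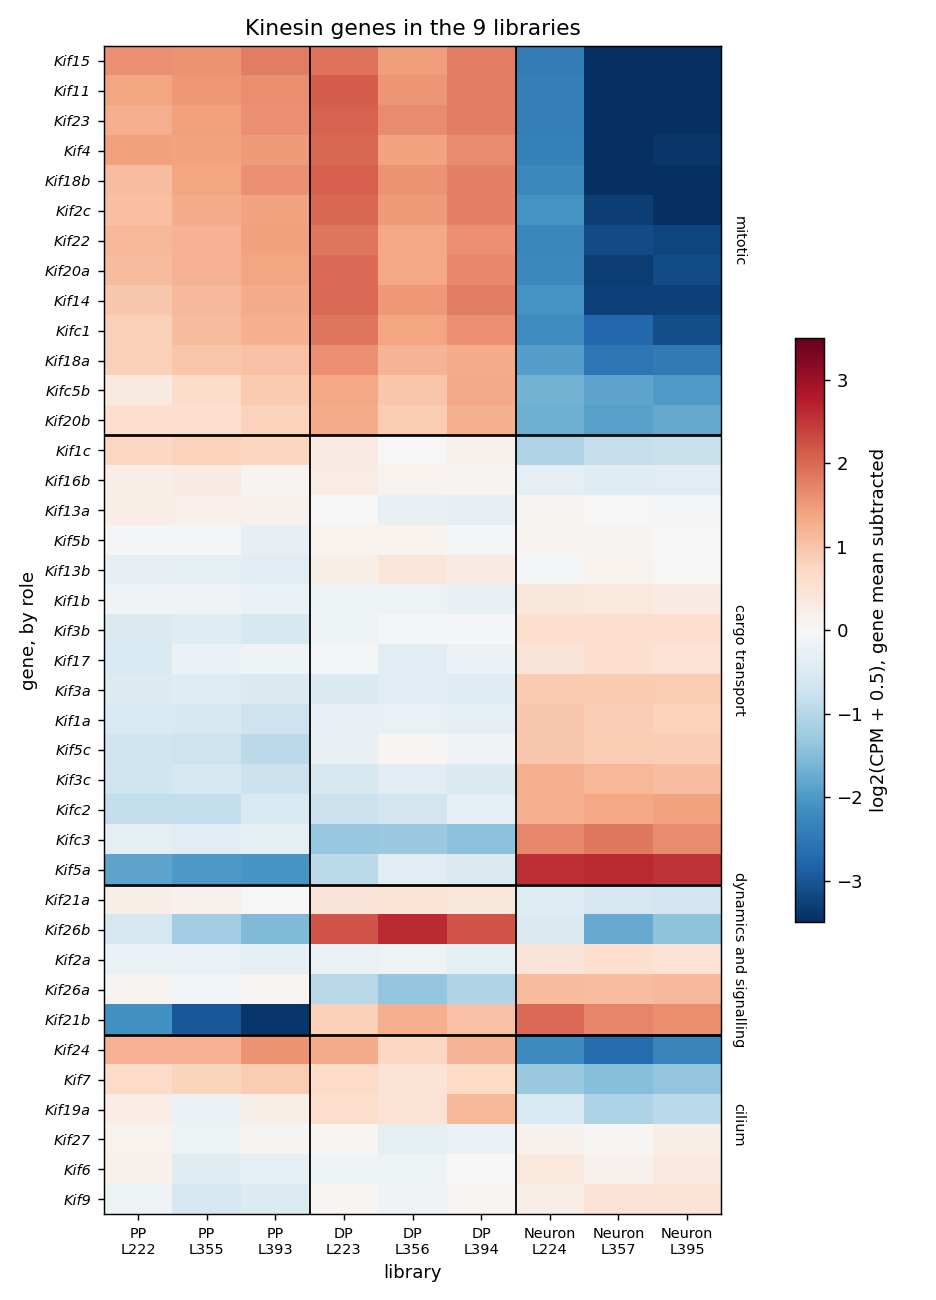
Level of the 39 tested kinesin genes in the 9 libraries, as log2(CPM + 0.5) with each gene's own mean subtracted, with genes grouped by role and libraries by group. The 13 mitotic genes are low in the 3 Neuron libraries, where Kif11 stood between 5.23 and 15.1 CPM, and Kif26b is high in the 3 DP libraries.

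Between PP and DP the kinesin set as a whole moved less. Of the 39 genes tested, 16 rose (41.0%, against 21.3% of all features called higher) and 4 fell (10.3%, against 20.2% of all features called lower). Of the 13 mitotic kinesins, 5 rose, namely Kif14, Kif18a, Kif20b, Kifc1 and Kifc5b, and none fell (0 at an unadjusted p under 0.05 and 0 by DESeq2, which called 4 higher). The fitted changes of the 13 ran from 0.09 (Kif15) to 0.66 (Kif14) on the log2 scale, with a median of 0.46 against -0.02 over all features.

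Kif14 rose 1.58-fold (adjusted p = 0.0464), Kifc5b 1.5-fold (adjusted p = 0.01), Kifc1 1.49-fold (adjusted p = 0.0315) and Kif18a 1.34-fold (adjusted p = 0.0397). The other 8 did not pass the test, among them Kif11 (1.25-fold, adjusted p = 0.402) and Kif23 (1.32-fold, adjusted p = 0.221). The count of 5 rested on single libraries: it was 2 (Kif20b and Kifc5b) without PP L222, without PP L355, without DP L223 or without DP L394, 3 with upper-quartile scaling, 9 with only the PP and DP libraries in the fit and 10 without Neuron L224. Without one of those 4 libraries, the adjusted p lay between 0.0888 and 0.122 for Kif14, between 0.0591 and 0.102 for Kifc1 and between 0.059 and 0.115 for Kif18a. Upper-quartile scaling gave 0.0646 for Kif14 and 0.0677 for Kif18a, and DESeq2 gave 0.185 for Kif14. Kifc5b reached 0.0581 without L222, L223 and L224 together. Kif20b kept its call under each of these settings.

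Each of the 13 mitotic kinesins had its highest mean in DP, although the change of Kif15 from PP was -0.026 on the log2 scale without L222, L223 and L224 together. DP L223 held the highest and DP L356 the lowest level of the DP group for every one of the 13, and PP L393 the highest of the PP group. Library L223 also held 124 CPM of red blood cell markers against 18.4 and 20.9 CPM in the other DP libraries, 73.8 CPM of 6 choroid plexus markers against 19.0 and 18.1 CPM, and 4018 CPM of radial glia markers against 2845 and 2793 CPM. The part of these differences in the DP levels was not tested.

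**Figure D2:**
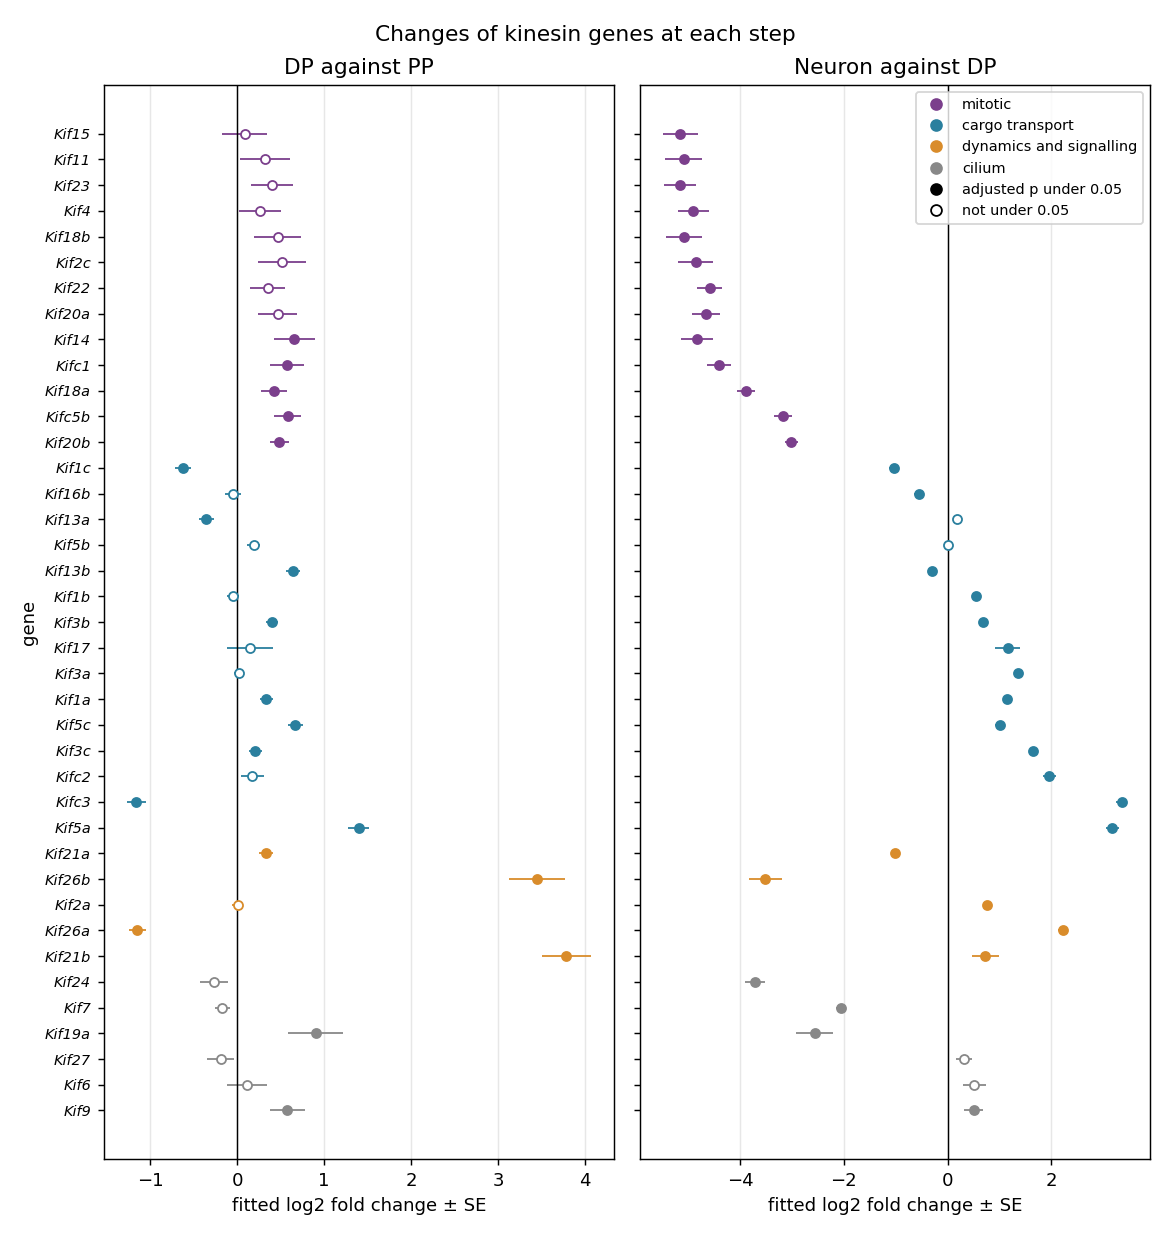
Fitted log2 change of each tested kinesin gene at each step (PP to DP on the left, DP to Neuron on the right), with bars of 1 SE and filled points for genes past the adjusted p of 0.05. The 13 mitotic genes lie between -5.15 and -3.01 in Neuron against DP and between 0.09 and 0.66 in DP against PP.

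The cargo motors took the opposite course at the step to neurons. Of the 15 cargo transport kinesins, 10 rose from DP to Neuron (66.7%, against 33.1% of all features called higher). In the same step 3 fell (20.0%, against 34.2% of all features called lower). Over all 39 genes, 14 rose (35.9%, near the 33.1% of all features) and 21 fell (53.9%, against 34.2%). Kif5a and Kifc3 rose at least 4-fold, as did 7.56% of all features. From PP to DP 6 of the 15 rose and 3 fell, against 21.3% and 20.2% of all features. Beside the rises at this step, all 9 postmitotic neuron markers were called higher in DP than in PP, and their part was not tested. The median log2 change of the 15 was 0.17 from PP to DP and 1.00 from DP to Neuron.

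The kinesin-1 heavy chains, which carry vesicles and mitochondria toward axon tips, differed among themselves. Kif5a (chr10:126662755-126700136, minus strand, mm9) stood at 31.3, 27.7 and 26.5 CPM in PP, 59.7, 85.3 and 79.4 CPM in DP and 678, 695 and 654 CPM in Neuron. The 3 groups did not overlap, and the Neuron libraries were far above the rest. Kif5a rose 2.63-fold from PP to DP (log2 change 1.395, SE 0.12, adjusted p = 4.24e-06) and 9.03-fold from DP to Neuron (log2 change 3.17, SE 0.12, adjusted p = 1.1e-09). Kif5c (chr2:49474818-49630298, plus strand, mm9) stood at 360.1, 358 and 312.8 CPM in PP, 493, 601 and 545 CPM in DP and 1123, 1097 and 1066 CPM in Neuron. It also climbed without overlap, by 1.59-fold (log2 change 0.67, SE 0.09, adjusted p = 8.94e-05) and then 2.00-fold (log2 change 1.00, SE 0.09, adjusted p = 8.16e-07). The third heavy chain gene, the broadly expressed Kif5b, had means of 186 ± 16.3 CPM in PP, 212 ± 14.1 CPM in DP and 213 ± 6.75 CPM in Neuron (SD, n = 3), with log2 changes of 0.19 (adjusted p = 0.076) and 0.01 (adjusted p = 0.911), neither past the test. The first of these reached an adjusted p of 0.0419 without DP L394 and 0.00935 with library sets as a block. Its 1.15-fold difference between Neuron and PP (adjusted p = 0.037) was lost without PP L393 (0.109), Neuron L224 (0.0875) or Neuron L357 (0.0863), with single-read runs only (0.0517) and with upper-quartile scaling (0.354).

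Kinesin-3 motors carry vesicle precursors. Kif1b, whose products move mitochondria and synaptic vesicle precursors (chr4:148550428-148681802, minus strand, mm9), stood at 817, 824 and 759.6 CPM in PP, 796, 789 and 737 CPM in DP and 1178, 1144 and 1091 CPM in Neuron. PP and DP overlapped (log2 change -0.05, SE 0.07, adjusted p = 0.614), and Neuron was 1.47-fold above DP (log2 change 0.56, SE 0.07, adjusted p = 1.86e-05). Kif1a, the main carrier of synaptic vesicle precursors (chr1:94912033-94998442, minus strand, mm9), stood at 404, 395.3 and 356.6 CPM in PP, 492, 499 and 468 CPM in DP and 1133, 1069.8 and 1022 CPM in Neuron. It rose 1.26-fold (adjusted p = 0.00323) and then 2.21-fold (adjusted p = 5.78e-08), with no overlap between groups. Kif1c, a close relative of Kif1a and Kif1b, went the other way, with means of 83.8 ± 2.26 CPM in PP, 54.5 ± 5.99 CPM in DP and 26.6 ± 2.8 CPM in Neuron (SD, n = 3). It fell 1.54-fold from PP to DP (adjusted p = 0.00032) and 2.05-fold from DP to Neuron (adjusted p = 1.67e-06).

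The remaining kinesin-3 genes of this list gave fitted log2 changes between -0.55 and 0.64 in the 2 steps. Kif13b, a carrier of signalling proteins, had means of 33.5 ± 1.43 CPM in PP, 52.3 ± 3.64 CPM in DP and 42.8 ± 2.44 CPM in Neuron (SD, n = 3), a rise of 1.56-fold (adjusted p = 5.1e-05) followed by a 1.22-fold fall (adjusted p = 0.00529). Kif13a, a carrier between the Golgi and endosomes, had means of 58.1 ± 1.76 CPM in PP, 45.4 ± 5.28 CPM in DP and 51.5 ± 2.91 CPM in Neuron (SD, n = 3) and fell 1.28-fold from PP to DP (adjusted p = 0.00627). Its later log2 change of 0.18 did not pass (adjusted p = 0.0817), but did without DP L223 (0.00567), without L222, L223 and L224 together (0.0184) and with library sets as a block (0.0143). Kif16b, which moves early endosomes, had means of 14.8 ± 1.01 CPM in PP, 14.3 ± 0.983 CPM in DP and 9.76 ± 0.396 CPM in Neuron (SD, n = 3) and fell 1.47-fold from DP to Neuron (adjusted p = 0.00026).

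Kinesin-2 motors work both in axons and in cilia. Kif3a, which pairs with Kif3b or Kif3c, had means of 106 ± 3.77 CPM in PP, 107 ± 3.55 CPM in DP and 275 ± 4.26 CPM in Neuron (SD, n = 3) and rose 2.57-fold from DP to Neuron (adjusted p = 2.36e-09). Kif3b had means of 57.4 ± 3.01 CPM in PP, 75.7 ± 3.65 CPM in DP and 122 ± 0.884 CPM in Neuron (SD, n = 3) and rose 1.32-fold and then 1.6-fold (adjusted p = 0.000452 and 1.73e-06). Kif3c, the neuron-enriched partner, had means of 146 ± 8.95 CPM in PP, 169 ± 12.5 CPM in DP and 525 ± 26.4 CPM in Neuron (SD, n = 3). Kif3c rose 3.11-fold from DP to Neuron (adjusted p = 4.61e-09), with 17.15% of its exon length shared with 1110002L01Rik on the opposite strand. Its 1.15-fold rise from PP to DP (adjusted p = 0.0475) was lost without any 1 of L222, L393, L356, L394, L357 or L395 (adjusted p between 0.0545 and 0.188), without L222, L223 and L224 together (0.0551), with only the PP and DP libraries (0.0702) and with upper-quartile scaling (0.101). Kif17, a dendritic carrier of glutamate receptor subunits, was rare, with 326 reads in all, and its Neuron mean of 1.33 CPM was 2.23-fold above DP (adjusted p = 0.00115).

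The minus-end motors Kifc2 and Kifc3 rose steeply in Neuron from low levels. Kifc3, known from Golgi and junction transport, stood at 4.94, 4.68 and 4.93 CPM in PP, 2.21, 2.27 and 2.03 CPM in DP and 21.5, 23.9 and 21.1 CPM in Neuron. DP was the lowest group and Neuron the highest, with no overlap: it fell 2.23-fold (log2 change -1.16, SE 0.11, adjusted p = 8.81e-06) and then rose 10.2-fold (log2 change 3.35, SE 0.11, adjusted p = 2.98e-10). Kifc2, a motor of neurons, had means of 8.15 ± 1.16 CPM in PP, 9.22 ± 1.49 CPM in DP and 35.9 ± 1.89 CPM in Neuron (SD, n = 3) and rose 3.9-fold from DP to Neuron (adjusted p = 7.72e-08), while PP and DP overlapped. Beside these rises, 7 Cajal-Retzius markers summed to between 868 and 985 CPM in Neuron and between 76.3 and 90.1 CPM in DP, and interneuron markers rose as given above, and their part was not tested.

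**Figure D3:**
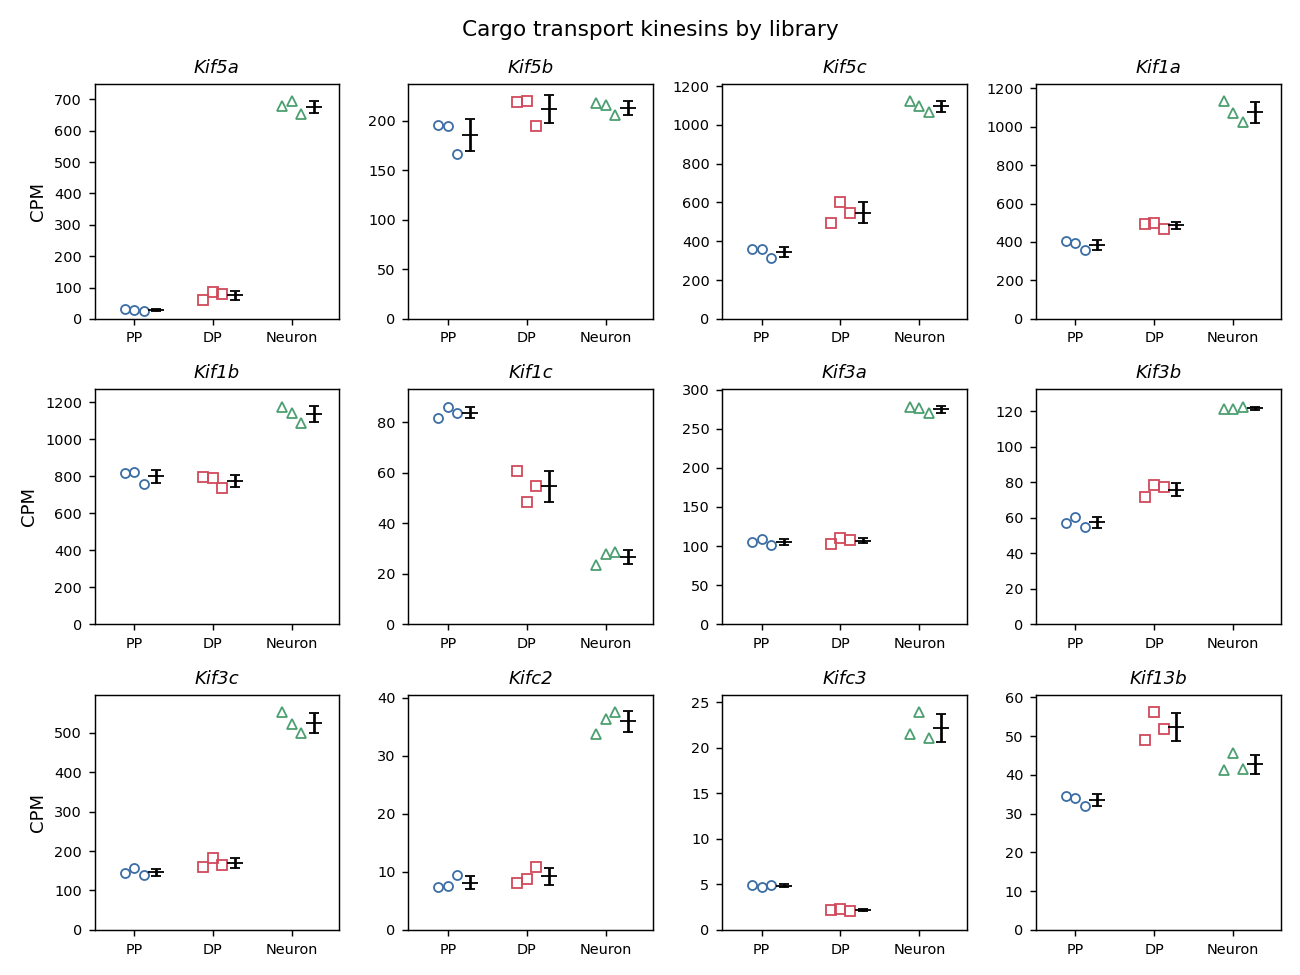
CPM of 12 cargo transport kinesins in each library (points) by group, with the mean ± SD beside them, on linear axes from 0. Kif5a reaches between 654 and 695 CPM in Neuron, above all other libraries, while the 3 groups of Kif5b lie close together between 166.8 and 220.0 CPM.

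Kinesins of microtubule dynamics and signalling gave the largest changes between PP and DP among the kinesins tested. Of the 5 tested, 3 rose and 1 fell from PP to DP (21.3% and 20.2% of all features), and 3 rose and 2 fell from DP to Neuron (33.1% and 34.2% of all features). Kif26b and Kif21b were the 2 kinesin genes that changed at least 4-fold from PP to DP, a size that 3.44% of all features reached upward. None fell that far, as 1.38% of all features did, the largest fall being 2.23-fold (Kifc3).

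Kif26b is an atypical kinesin-11 that binds microtubules without acting as a motor and is known from kidney development (chr1:180459256-180862986, plus strand, mm9). It stood at 40.9, 26.2 and 21.03 CPM in PP, 287, 383 and 286 CPM in DP and 43.2, 17.8 and 23.2 CPM in Neuron. The DP libraries were the only high ones, and PP and Neuron overlapped. Kif26b rose 10.9-fold from PP to DP (log2 change 3.45, SE 0.32, adjusted p = 8.46e-06) and fell 11.4-fold from DP to Neuron (log2 change -3.51, SE 0.33, adjusted p = 1.53e-06). Between Neuron and PP the log2 difference was -0.06 (SE 0.30, adjusted p = 0.864). In the authors' deposited table its log2 changes were 3.36 and -3.40. An opposite-strand gene, Gm16564, shares 11.6% of its exon length but held only 1046 reads against 51231. Its promoter also holds TTTGAA, shown because its course differs from that of the mitotic genes with this motif.
Kif26b (chr1:178529104-178529133, plus strand, first motif base at -9): tgggagaatttcTTTGAActcagttagcga
The relative Kif26a, which restrains growth factor signalling in enteric neurons (chr12:113384446-113419957, plus strand, mm9), had the reverse order, at 268, 235 and 265 CPM in PP, 128, 97.6 and 121 CPM in DP and 539, 532 and 548 CPM in Neuron. DP was lowest and Neuron highest, with no overlap. Kif26a fell 2.22-fold from PP to DP (log2 change -1.15, SE 0.10, adjusted p = 3.87e-06) and rose 4.67-fold from DP to Neuron (log2 change 2.23, SE 0.10, adjusted p = 3.09e-09).

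The kinesin-4 pair Kif21a and Kif21b restrains microtubule growth. Kif21b (chr1:138027966-138074575, plus strand, mm9) stood at 186, 104 and 76.7 CPM in PP, 1453, 1947 and 1657 CPM in DP and 3197, 2657 and 2519 CPM in Neuron. It climbed in both steps without overlap. PP L222 was the highest PP library for Kif21b, as it was for each of the 5 dynamics and signalling genes tested. In L222 the postmitotic neuron markers summed to 624 CPM against 500.4 and 397 CPM in the other PP libraries, and the part of this was not tested. Kif21b rose 13.8-fold from PP to DP (log2 change 3.79, SE 0.28, adjusted p = 1.59e-06). The same 9 neuron markers summed to between 2501 and 3373 CPM in DP. Their median log2 change from PP to DP was 3.33, and the part of this in the rise was not tested. The 1.66-fold rise from DP to Neuron (log2 change 0.73, SE 0.25, adjusted p = 0.0238) was lost without DP L223 (0.0777), DP L394 (0.0565) or Neuron L224 (0.0761). Kif21a stood at 392, 376 and 338 CPM in PP, 468, 475 and 445 CPM in DP and 250.01, 225 and 215 CPM in Neuron. It was highest in DP and lowest in Neuron without overlap, rising 1.26-fold (adjusted p = 0.00595) and then falling 2.01-fold (adjusted p = 3.61e-07). Kif2a, a kinesin-13 that trims axon branches by shortening microtubules, had means of 91.4 ± 3.39 CPM in PP, 91.8 ± 4.82 CPM in DP and 156.2 ± 6.27 CPM in Neuron (SD, n = 3). PP and DP overlapped, and Neuron was 1.7-fold above DP (adjusted p = 6.88e-07), with 17.4% of its exon length shared with Dimt1 on the opposite strand.

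**Figure D4:**
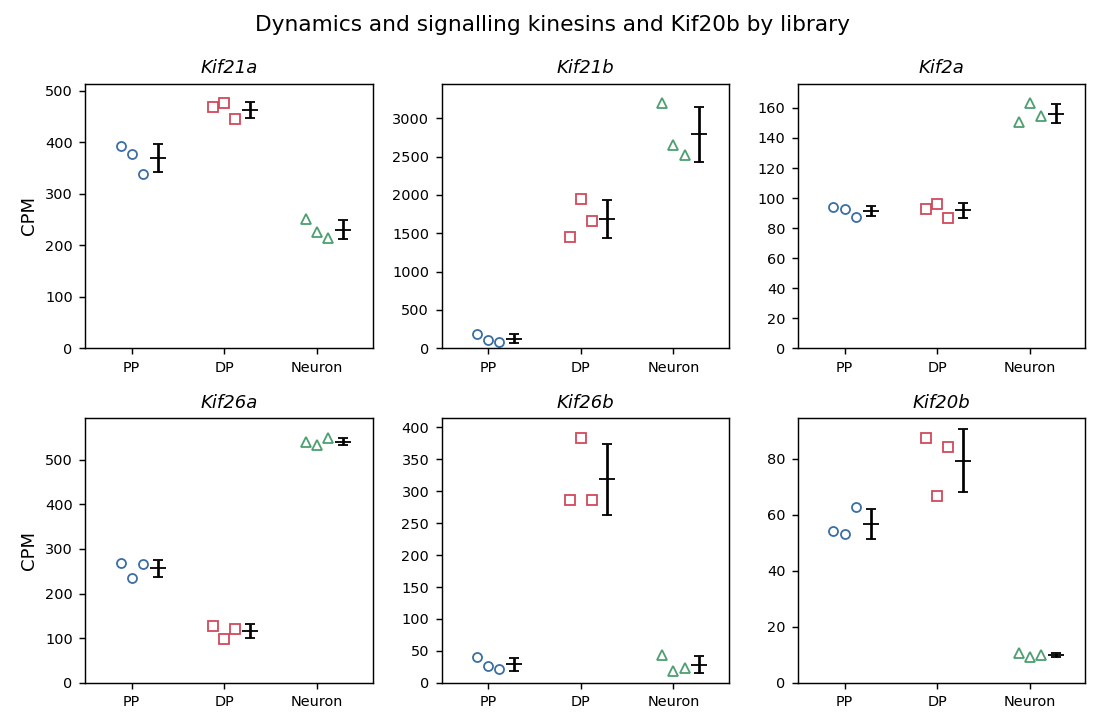
CPM of 5 microtubule dynamics and signalling kinesins and of the mitotic Kif20b in each library (points) by group, with the mean ± SD beside them, on linear axes from 0. Kif26b is high in the DP libraries alone (286 to 383 CPM), Kif26a is lowest there (97.6 to 128 CPM) and Kif21b climbs to between 2519 and 3197 CPM in Neuron.

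The cilium kinesins did not share a single course across the groups. From DP to Neuron 3 of the 6 fell and 1 rose (34.2% and 33.1% of all features), and from PP to DP 2 rose and none fell (0 at an unadjusted p under 0.05 and 0 by DESeq2), against 21.3% and 20.2%. With library sets as a block, 3 rose from DP to Neuron, and Kif24 was called lower from PP to DP (adjusted p = 0.0448). With 6 genes, the counts give no contrast with all features. Kif7, which regulates Hedgehog signalling at the cilium tip (chr7:86842985-86859072, minus strand, mm9), stood at 59.9, 64.6 and 69.5 CPM in PP, 59.2, 52.0 and 61.2 CPM in DP and 14.9, 12.9 and 13.9 CPM in Neuron. PP and DP overlapped, and Neuron lay below both, 4.14-fold under DP (log2 change -2.05, SE 0.09, adjusted p = 3.18e-09). Its exons share 17.5% of their length with 9330171B17Rik on the opposite strand. Kif24, a kinesin-13 of the centriole that holds back cilium formation (chr4:41337778-41411920, minus strand, mm9), stood at 40.0, 39.4 and 51.1 CPM in PP, 41.9, 28.1 and 38.9 CPM in DP and 3.18, 2.17 and 2.99 CPM in Neuron. It fell 13.1-fold from DP to Neuron (log2 change -3.71, SE 0.19, adjusted p = 9.91e-09), the largest fall among kinesins outside the mitotic list. Kif27, the relative of Kif7, stood at 4.8, 3.82 and 4.79 CPM in PP, 4.61, 3.47 and 3.71 CPM in DP and 4.96, 4.59 and 5.2 CPM in Neuron. The 3 groups overlapped, and neither step passed the test (adjusted p = 0.369 and 0.0836), although the second did without DP L223 (0.0241) and with library sets as a block (0.0278).

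Kif6, Kif9 and Kif19a, motors of motile cilia, were near the bottom of the range, with 572, 733 and 484 reads over all libraries. Kif19a, which trims cilia, stood at 1.34, 0.833 and 1.27 CPM in PP, 1.84, 1.67 and 2.94 CPM in DP and 0.562, 0.223 and 0.309 CPM in Neuron. The groups did not overlap, with DP highest. It fell 5.88-fold from DP to Neuron (adjusted p = 5.4e-05). The 1.87-fold rise from PP to DP (adjusted p = 0.0373) was lost without PP L355 (0.127), PP L393 (0.0545) or DP L394 (0.163), with paired-end runs only (0.0627) and with upper-quartile scaling (0.0509). Kif9 had means of 1.21 ± 0.26 CPM in PP, 1.8 ± 0.183 CPM in DP and 2.54 ± 0.298 CPM in Neuron (SD, n = 3). Its rises of 1.49-fold (adjusted p = 0.039) and 1.41-fold (adjusted p = 0.0371) were each lost on leaving out single libraries: the first without L355, L393, L223, L394, L357 or L395 (adjusted p between 0.0529 and 0.132), the second without L356, L394, L357 or L395 (between 0.0571 and 0.12). Other settings also ended them, namely paired-end runs only (0.39), only the PP and DP libraries (0.0671) and upper-quartile scaling (0.0615) for the first, and single-read runs only (0.608), no filter on low counts (0.0581) and upper-quartile scaling (0.0701) for the second. Kif6 had means of 1.21 ± 0.376 CPM in PP, 1.3 ± 0.131 CPM in DP and 1.86 ± 0.184 CPM in Neuron (SD, n = 3) and passed neither step (adjusted p = 0.727 and 0.0608). The second passed without PP L222 (0.0285), with DESeq2 size factors in edgeR (0.0488) and with only the DP and Neuron libraries (0.0351) or library sets as a block (0.036).

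Levels of different kinesins were compared as CPM per kb of exon, and their order depends on which length is used. In PP the highest means were 56.7 ± 4.23 CPM per kb for Kif21a, 49.0 ± 4.27 for Kif11 and 48.1 ± 3.74 for Kif5c (SD, n = 3), and in this order the SD range of each gene overlapped that of the next. With the length of the longest GENCODE transcript in place of the exon length, Kif1b came first in PP. In DP Kif21b led with 155.9 ± 23.0 CPM per kb, ahead of Kif5c with 76.5 ± 7.53 and Kif21a with 71.2 ± 2.4, the last pair with overlapping SD ranges. In Neuron the order was Kif21b with 258 ± 33.2, Kif5c with 153 ± 4.02, Kif1a with 129 ± 6.7 and Kif5a with 101 ± 3.01 CPM per kb. By the GENCODE length Kif1b moved up to rank 3 in DP, ahead of Kif21a, and to rank 4 in Neuron, with 111 CPM per kb against 107 for Kif5a. Kif26b ranked 8 in DP by exon length and 18 by the GENCODE length.

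Summed by role, the mitotic kinesins held 261 ± 27.0 CPM per kb in PP, 342 ± 60.7 in DP and 14.5 ± 6.25 in Neuron (SD, n = 3), which is 39.8%, 35.4% and 1.33% of the kinesin level. Cargo transport kinesins held 251 ± 13.4, 304 ± 13.1 and 659 ± 19.99 CPM per kb. Dynamics and signalling kinesins held 122 ± 11.6, 298 ± 28.8 and 398 ± 36.7 CPM per kb, and cilium kinesins 21.5 ± 1.81, 19.3 ± 2.18 and 5.48 ± 0.348 CPM per kb. The mitotic share was within its spread between PP and DP and small in Neuron.

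**Figure D5:**
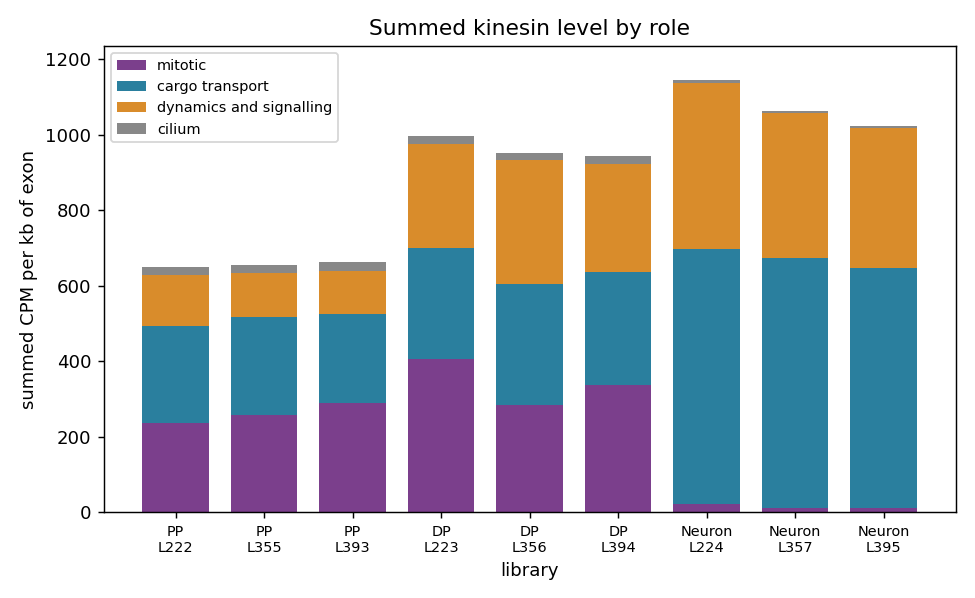
Summed CPM per kb of exon of the kinesin genes in each library, stacked by role. Mitotic kinesins make up between 29.9% and 43.8% of the kinesin level in the progenitor libraries and between 1.03% and 1.89% in Neuron.

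Genes that work with these motors were counted from lists of known partners. Of 24 spindle and cytokinesis partners, 24 fell from DP to Neuron and none rose (0 at an unadjusted p under 0.05 and 0 by DESeq2), with a median log2 change of -4.57, while 34.2% of all features fell. From PP to DP 3 of them rose and none fell (0 at an unadjusted p under 0.05 and 0 by DESeq2), against 21.3% and 20.2% of all features. The list includes Cenpe, which is itself a mitotic kinesin motor whose symbol lies outside the rule. Cenpe was 22.5-fold below its DP level in Neuron (adjusted p = 1.53e-07). Cenpf, a kinetochore protein, was 27.4-fold below its DP level in Neuron (adjusted p = 4.98e-08), while Numa1, which anchors dynein at spindle poles, was 1.43-fold lower (adjusted p = 5.87e-05).

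Of 23 kinesin light chains and cargo adaptors, 17 rose and 1 fell from DP to Neuron, where 33.1% and 34.2% of all features did, and 12 rose and 5 fell from PP to DP, where 21.3% and 20.2% did. Kidins220, a scaffold that links kinesin-1 to neurotrophin receptors, rose 1.56-fold (adjusted p = 0.000352) and then 4.06-fold (adjusted p = 7.77e-09). Mapk8ip3, the JNK scaffold that joins kinesin-1 to cargo, rose 1.72-fold from DP to Neuron (adjusted p = 1.25e-06). Kifap3, the subunit that completes the Kif3a and Kif3b motor, lies outside the symbol rule. Its means were 52.6 ± 5.49 CPM in PP, 61.1 ± 3.87 CPM in DP and 204 ± 5.64 CPM in Neuron (SD, n = 3). Neuron was 3.87-fold above PP (adjusted p = 1.36e-09).

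Dynein moves cargo toward the other microtubule end. Of its 23 tested cytoplasmic dynein and dynactin genes, 19 rose and 1 fell from DP to Neuron (all features 33.1% and 34.2%), and 11 rose and 1 fell from PP to DP (all features 21.3% and 20.2%). The heavy chain Dync1h1 rose 1.30-fold (adjusted p = 0.0189) and then 1.51-fold (adjusted p = 0.000597), and Pafah1b1, the dynein regulator Lis1, rose 1.42-fold at the second step (adjusted p = 8.56e-05).

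Of 21 genes of the primary cilium and intraflagellar transport, 7 rose and 11 fell from DP to Neuron, and 5 rose and 3 fell from PP to DP. The rises at both steps and the falls from PP to DP lay near the shares of all features (33.1%, 21.3% and 20.2%). The 11 falls of 21 from DP to Neuron stood against 34.2% of all features called lower. Gli3, the Hedgehog repressor that Kif7 helps to process, fell 2.13-fold (adjusted p = 2.94e-05) and then 20.9-fold (adjusted p = 2.8e-10), and it is also on the radial glia list. The partner of Kif24 at the centriole, Ccp110 (named 6330503K22Rik in the files), fell 1.70-fold from DP to Neuron (adjusted p = 4.52e-07). Of 14 motile cilium genes, 5 rose and 6 fell from DP to Neuron, near the 33.1% and 34.2% of all features. From PP to DP 4 rose and 2 fell, where 21.3% and 20.2% of all features did. Foxj1, the master regulator of motile cilia, fell 2.25-fold from DP to Neuron (adjusted p = 3.06e-05). Ccdc40, needed to assemble the axoneme, fell 1.49-fold from PP to DP (adjusted p = 0.00129) and rose 1.24-fold from DP to Neuron (adjusted p = 0.0251).

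Between Neuron and PP, 17 of the 39 kinesins were higher (43.6%, against 36.7% of all features) and 19 were lower (48.7%, against 38.6%). By role, 12 of 15 cargo transport genes were higher and 2 lower, beside those 36.7% and 38.6% of all features. Of the 5 dynamics and signalling genes tested, 3 were higher and 1 lower. Of the 6 cilium genes, 2 were higher (33.3%, near the 36.7% of all features) and 3 lower. Kif5a was 23.8-fold higher in Neuron than in PP (adjusted p = 8.08e-11) and Kif21b 22.8-fold (adjusted p = 4.28e-08). Kif6 was 1.55-fold higher (adjusted p = 0.0244), a call lost without PP L355 (0.0975), PP L393 (0.0746), Neuron L224 (0.0695) or Neuron L395 (0.0611), with paired-end runs only (0.151) and with upper-quartile scaling (0.0635). Kif13a, with a log2 difference of -0.17 (adjusted p = 0.087), passed with upper-quartile scaling (0.00842), with single-read runs only (0.0343), with only the Neuron and PP libraries (0.0379) and with library sets as a block (0.0162). Without L224 the Neuron levels of 6 mitotic genes were lower against PP by more than 1.5 times as much, at 42.7-fold for Kif11, 41.1-fold for Kif23, 55.0-fold for Kif15, 40.7-fold for Kif18b, 33.6-fold for Kif2c and 28.005-fold for Kif14, against 27.1-, 26.9-, 33.4-, 24.5-, 20.2- and 18.0-fold with it. Without L222, L223 and L224 together, these 6 genes were between 29.4-fold (Kif14) and 55.5-fold (Kif15) lower.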

How the data were processed

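The authors deposited raw counts per gene, in whole numbers, for a single-read and a paired-end run of each of 9 libraries, as the file headers show. Tools named in the submitters' processing notes include TopHat2 2.0.10, Bowtie2 2.2.1, featureCounts 1.4.4 and DESeq2 1.4.5, without their roles, and the build is mm9. Gene lengths stand in the deposited count tables. The deposited comparison tables hold the authors' log2 fold changes and their adjusted p-values. They also hold a normalised signal per library, by the authors, which equalled the summed counts divided by 1 size factor for 40 of 40 kinesin genes in every column, within 0.06.

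Counts of the 2 runs of a library were added here. Count columns carry library numbers (L222 and so on) that the sample labels do not, so columns were tied to groups by name. These numbers run in 3 sets of consecutive libraries (L222 to L224, L355 to L357 and L393 to L395), each with 1 library of every group. Deviations from the group means correlated in all 9 pairs of libraries of the same set (Pearson's r across genes between 0.187 and 0.462), so the sets were taken as pairing the libraries. Between sets r lay between -0.427 and 0.051. Deviations within a group sum to 0, so positive values within sets push those between sets down. The range between sets is therefore no independent contrast. A fit with the set as a block was added after seeing the data, and its adjusted p stands beside each result whose call it changes. All 9 libraries were fitted in R 4.3.3 with the quasi-likelihood test of edgeR 4.0.16 on the group alone, after filterByExpr and TMM scaling, with Benjamini-Hochberg adjustment over 18627 features and a threshold of 0.05. The SE of a log2 change is its size divided by the root of the F statistic. The scripts were tested on simulated data. DESeq2 1.42.0, other scalings, no count filter, single runs and leaving out libraries were alternatives.

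Values in every library are given for Kif26b, Kif20b, the members called with a change of at least 4-fold in either step, and the 3 members of each role with the highest mean CPM. Of each partner list, the 2 members with the highest mean CPM are named, and Cenpe and Kifap3 are named besides. The members, role lists, partner lists and marker lists were chosen with earlier results of these data known. The comparisons share libraries, so their values are not independent. The RefSeq promoters are on another build than the count tables, and each was used with its own coordinates. The counting's strand setting was not given in the sources used here.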

Additional observations from a re-analysis of the deposited data

How the results depend on the processing

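Of the 20 kinesin genes called between PP and DP, 13 kept their call under each of 18 alternatives, as did 33 of 35 between DP and Neuron and 34 of 36 between PP and Neuron. The counts of genes called higher between PP and DP ranged from 11 to 21, and all other total counts stayed nearer the reported ones. Reversed directions occurred only in genes that had not passed the test. With upper-quartile scaling the log2 change was -0.048 for Kif2a and -0.034 for Kif3a from PP to DP, and -0.057 for Kif5b from DP to Neuron. This scaling also moved the median of all features between PP and Neuron from -0.04 to -0.16. Single-read runs alone gave -0.439 for Kif17, 0.038 for Kif27 and -0.009 for Kif2a from PP to DP. Paired-end runs alone gave -0.047 for Kif6 from PP to DP, and 0.006 for Kif26b and -0.003 for Kif27 between PP and Neuron. Without L222, L223 and L224 together, Kif15 gave -0.026 and Kif17 -0.154 from PP to DP. Kif5b from DP to Neuron gave -0.003 with no filter and -0.005 with only those libraries. Leaving out 1 library gave ranges from PP to DP of -0.089 to 0.002 for Kif16b, -0.03 to 0.309 for Kif17, -0.026 to 0.049 for Kif2a and -0.035 to 0.383 for Kif6. The range was -0.046 to 0.044 for Kif5b from DP to Neuron and -0.511 to 0.247 for Kif26b between PP and Neuron. The cause was not tested.

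With the replicate block by library sets, 17 kinesin genes were called higher and 5 lower from PP to DP, 17 and 21 from DP to Neuron, and 17 and 20 between PP and Neuron. No call was lost under this block, and it changed no call other than those given in the report. The planned RefSeq coding length was not run. The longest GENCODE transcript was used for levels per kb, an alternative chosen after seeing the data. Each group has 3 libraries, and Kif6, Kif9, Kif17 and Kif19a rest on under 800 reads in all.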
